A study of Mus musculus with 8 samples.

Results

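Transcripts of 10 genes at the FoxO end of insulin signalling were followed in mouse liver: the forkhead factors Foxo1, Foxo3 and Foxo4, and 7 genes known as FoxO-regulated or as repressed by feeding, Sesn1, Sesn3, Ccng2, Bcl6, Cited2, Klf15 and Txnip. They were chosen by gene symbol, and 10 of the 19938 genes named on the array are described here, each read by 1 probe set that carries no other symbol. All 10 had a mean of at least 6 on the log2 scale, so a filter at that level would have removed none of them. The livers came from 8 adult male mice, fasted for 16 h and then allowed to eat freely for 3 h. In 4 of them, here called RKO-labelled after the sample titles, Rictor carried floxed alleles and was deleted in the liver with albumin-Cre, a transgene driven by a promoter active in hepatocytes, so that other liver cells keep the gene. The other 4 are labelled wild type (WT) and control; whether they carried Cre or floxed alleles is not given in the labels. Each mouse gave 1 Affymetrix Mouse Gene 1.0 ST array.

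FoxO factors are transcription factors of the fasted state. When insulin is low they sit in the nucleus and switch on genes of gluconeogenesis, stress resistance and cell cycle arrest; after feeding, Akt phosphorylates them, and they leave the nucleus bound to 14-3-3 proteins. Rictor defines mTOR complex 2 (mTORC2), the kinase complex that phosphorylates Akt at its hydrophobic motif, so the comparison asks how transcripts around FoxO depend on hepatic mTORC2 in the fed state. This control of the factors acts on the proteins, which an array does not see. In bulk liver, fewer cells of a type and less RNA per cell cannot be told apart.

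Some facts of the whole series bear on every value below. The Rictor probe set itself was not lower in the RKO-labelled livers (9.15, 9.51, 9.68 and 9.47, against 9.47, 9.28, 9.23 and 9.64 in WT livers), a check that says nothing about the genotype if the probes lie outside the deleted exons, and every direction below rests on the labels. RKO-labelled array 1 had a mean correlation of 0.9919 with RKO-labelled arrays 2 to 4 and of 0.995 with the WT arrays. WT array 1 had a mean correlation of 0.9937 with the RKO-labelled arrays and of 0.9937 with WT arrays 2 to 4. Over all genes limma called 0 of 19938 at an adjusted p under 0.05 (0%), with 2084 (10.5%) at an unadjusted p under 0.05; without both arrays numbered 1, a choice made with earlier results of these data known, it called 1489 (7.47%). With array weights 707 genes were called (3.55%) and 877 genes without RKO-labelled array 1 (4.4%); 0 of the 10 genes described here were among either. Hepatocyte markers averaged 13.9 on each RKO-labelled array and from 13.8 to 13.9 on the WT arrays (7 of 8 listed markers measured).

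The transcripts of the FoxO factors themselves differed by at most 0.11 (log2) between the group means, and the 7 targets had means on both sides of WT, 3 higher and 4 lower. Of the 10 genes, 0 passed the test (limma adjusted p from 0.372 to 0.971), 4 had a higher mean and 6 a lower mean in RKO-labelled livers, and in 0 of the 10 did the groups separate without overlap, against 4.42% of all genes. The median log2 difference was -0.04, beside -0.02 over all genes. Only Cited2 had an unadjusted limma p under 0.05, on the lower side, where 6.61% of all genes lay. Txnip had the largest difference on the higher side and Bcl6 by far the largest spread within the groups.

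**Figure D1:**
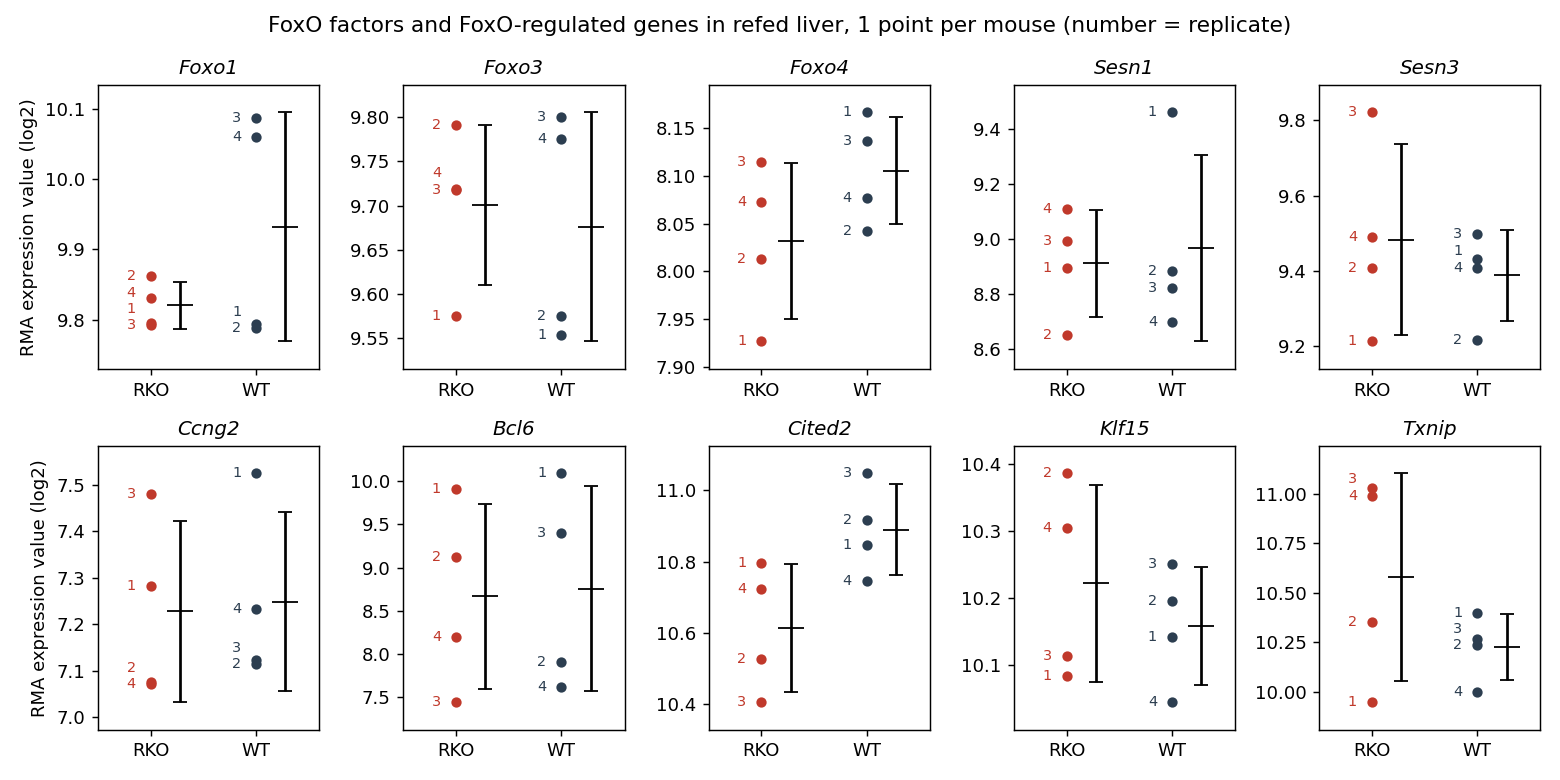
Expression values (log2, y axis, a separate scale for each gene) of the 10 genes in RKO-labelled (left, red) and WT (right, dark) livers. Each point is 1 mouse with its replicate number, and the bars give the mean and SD of 4 arrays. The groups overlap in all 10 panels; Bcl6 spans 2.65 log2 units, and the Txnip values of RKO-labelled arrays 3 and 4 stand at 11.03 and 10.99, above every WT array.

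Foxo1, the main insulin-regulated FoxO of the liver and a direct activator of the Igfbp1 and glucose-6-phosphatase genes, read 9.80, 9.86, 9.79 and 9.83 in RKO-labelled livers, against 9.79, 9.79, 10.09 and 10.06 in WT livers. The RKO-labelled arrays were almost identical (SD 0.03), while WT arrays 3 and 4 stood above all the others (SD 0.16). The log2 difference was -0.11 (SE 0.10, 95% interval from -0.32 to 0.10; limma adjusted p = 0.737), which corresponds to between 0.799 and 1.07 times the WT level.

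Foxo3, which shares much of its target range with Foxo1 and is widely studied in muscle and in long life, read 9.57, 9.79, 9.72 and 9.72 in RKO-labelled livers, against 9.55, 9.57, 9.80 and 9.77 in WT livers. Both groups held low and high values over the same span, and array 1 was the lowest of its group in each. The difference was 0.02 (SE 0.10, 95% interval from -0.19 to 0.24; limma adjusted p = 0.955). Foxo4, a further family member that is retained in the cytoplasm by the same Akt-dependent route, read 7.93, 8.01, 8.11 and 8.07 in RKO-labelled livers and 8.17, 8.04, 8.14 and 8.08 in WT livers. Here the lowest and the highest of the 8 values belonged to RKO-labelled array 1 and WT array 1. The difference was -0.07 (SE 0.08, 95% interval from -0.25 to 0.10; limma adjusted p = 0.806). Foxo6, a paralog best known from brain, differed by -0.03 (SE 0.10; limma adjusted p = 0.952). For none of the 3 factors among the 10 genes did the interval reach a change of 1.5-fold in either direction.

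Txnip encodes thioredoxin-interacting protein, an arrestin-like protein that restrains glucose uptake and binds thioredoxin; its transcription is driven by glucose through ChREBP and is also tied to FoxO1. It read 9.95, 10.35, 11.03 and 10.99 in RKO-labelled livers, against 10.40, 10.23, 10.26 and 9.999 in WT livers. RKO-labelled arrays 3 and 4 lay above all WT arrays, array 2 within the WT range and array 1 below all of them. The log2 difference was 0.36 (SE 0.21, 95% interval from -0.09 to 0.80), or 1.28-fold, and did not pass (limma adjusted p = 0.560; exact permutation p = 0.286). RKO-labelled array 1 lay 0.84 below the mean of the other RKO-labelled arrays, and without it the difference was 0.57 (SE 0.16; limma adjusted p = 0.0639). Leaving out both arrays numbered 1 gave 0.62 (SE 0.16; limma adjusted p = 0.0272), and Txnip was then the only one of the 10 genes called, where 2.39% of all genes were called as higher. Both arrays lay toward the other group there, so this value is a description. Over the 17 alternatives run for Txnip the adjusted p ranged from 0.0272 to 0.897, and the difference was positive in every one. Leaving out 1 array at a time gave values from 0.21, without RKO-labelled array 3, to 0.57.

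The RefSeq sequence before the Txnip start is shown because it holds the FoxO core letters GTAAACA, and that of Igfbp1 beside it as the textbook insulin-repressed promoter. Windows of 250 bases before to 50 after the annotated start were searched on both strands for GTAAACA, for the insulin response letters TGTTTTG and TATTTTG and for the E-box CACGTG, which do not contain one another. Windows of 9 of the 10 genes were matched (11 windows), with 2 each for Sesn1 and Bcl6 and 0 for Foxo4. Counts of genes and shares of windows therefore differ in their base. GTAAACA stood in those of 2 of the 10 genes, Txnip and Sesn1, and in 3.65% of all 32851 windows; TGTTTTG stood in 1 gene, Ccng2, and in 6.28% of windows; TATTTTG stood in 0 of the 10 genes and in 4.36%. In Sesn1 GTAAACA lies after the start, from base 23 to 29 (read on the other strand), in 1 of its 2 windows. In Txnip it runs from base -121 to -115. In Igfbp1 the 2 insulin response stretches run from -108 to -102 (read on the other strand) and from -97 to -91. The sequences are the 250 bases before the start on the plus strand of GRCm38.p6, chr3:96557707-96557956 for Txnip and chr11:7197537-7197786 for Igfbp1, with the letters found in capitals. A match of letters is a description and shows no binding.
Txnip: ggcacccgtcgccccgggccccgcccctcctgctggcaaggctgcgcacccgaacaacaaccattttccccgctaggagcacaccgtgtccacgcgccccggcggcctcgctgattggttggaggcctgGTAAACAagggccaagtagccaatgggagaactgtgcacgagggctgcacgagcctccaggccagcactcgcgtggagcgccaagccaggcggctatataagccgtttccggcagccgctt
Igfbp1: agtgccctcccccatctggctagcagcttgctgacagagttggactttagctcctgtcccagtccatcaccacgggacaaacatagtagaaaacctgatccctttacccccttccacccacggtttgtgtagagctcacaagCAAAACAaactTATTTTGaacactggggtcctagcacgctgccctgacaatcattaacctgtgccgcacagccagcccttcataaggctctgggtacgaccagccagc

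Cited2 differed in the opposite direction. It encodes a coregulator that binds CBP and p300 and, in fasted mouse liver, promotes gluconeogenesis together with PGC-1alpha. It read 10.80, 10.53, 10.41 and 10.72 in RKO-labelled livers, against 10.85, 10.92, 11.05 and 10.75 in WT livers. The overlap was confined to 1 pair of values, RKO-labelled array 1 at 10.80 above WT array 4 at 10.75. The log2 difference was -0.28 (SE 0.11, 95% interval from -0.51 to -0.04), or 0.826 times the WT level (exact permutation p = 0.0571), and it did not pass (limma adjusted p = 0.372). It was negative in all 17 alternatives, between -0.34 and -0.21 whichever single array was left out, and passed in none of them (adjusted p from 0.0688 to 0.772). The sequence before its start (GRCm38.p6, chr10:17722978-17723227, plus strand) is shown because Cited2 is the 1 gene of the 10 with an unadjusted p under 0.05; it held none of the FoxO letters searched and 1 E-box, in capitals, from base -153 to -148. E-boxes with exactly these letters stood in the windows of 3 of the 10 genes, Bcl6, Cited2 and Klf15, with 3 of them in Klf15, and in 7.15% of all windows. E-box forms with other letters were not searched, in Txnip or in any other gene.
Cited2: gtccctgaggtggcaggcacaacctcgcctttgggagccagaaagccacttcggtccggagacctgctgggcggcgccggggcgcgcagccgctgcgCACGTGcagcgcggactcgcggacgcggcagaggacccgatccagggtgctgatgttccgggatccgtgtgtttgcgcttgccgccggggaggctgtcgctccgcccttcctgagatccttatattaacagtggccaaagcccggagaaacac

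Sestrins are stress-induced proteins that hold mTOR complex 1 in check, and Sesn3 is a FoxO target in mouse liver. Sesn3 read 9.21, 9.41, 9.82 and 9.49 in RKO-labelled livers, against 9.43, 9.22, 9.50 and 9.41 in WT livers. RKO-labelled array 3 was the highest of the 8 and RKO-labelled array 1 the lowest, so the whole WT range lay inside that of the other group. The difference was 0.09 (SE 0.13, 95% interval from -0.18 to 0.37; limma adjusted p = 0.842), and it ran from -0.018 without RKO-labelled array 3 to 0.18 without RKO-labelled array 1.

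Sesn1, a p53- and FoxO-responsive sestrin, read 8.90, 8.65, 8.99 and 9.11 in RKO-labelled livers, against 9.46, 8.88, 8.82 and 8.70 in WT livers. WT array 1 was the highest of all 8, and the other WT arrays lay within the RKO-labelled range. The difference was -0.05 (SE 0.16; limma adjusted p = 0.939) with all arrays and 0.11 (SE 0.12; limma adjusted p = 0.766) without WT array 1, which changed its sign. The third sestrin, Sesn2, induced by the integrated stress response and not one of the 10 genes, gave 7.68, 8.25, 8.28 and 7.88 in RKO-labelled livers and 8.003, 7.43, 7.71 and 7.63 in WT livers, a difference of 0.33 (SE 0.15; limma adjusted p = 0.449). Leaving out both arrays numbered 1 gave 0.55 (SE 0.12; limma adjusted p = 0.0165). Both arrays lay toward the other group for Sesn2, so this value is a description. Whether the sestrins differed from one another in this was not tested.

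Ccng2, an unconventional cyclin that accompanies cell cycle arrest and is a FoxO target in other cells, read 7.28, 7.08, 7.48 and 7.07 in RKO-labelled livers, against 7.53, 7.11, 7.12 and 7.23 in WT livers. The 2 groups covered nearly the same range, with WT array 1 the highest of the 8. The difference was -0.02 (SE 0.12, 95% interval from -0.28 to 0.23; limma adjusted p = 0.968). Its sequence before the start (GRCm38.p6, chr5:93267323-93267572, plus strand) is shown as that of the member with insulin response letters close to the start, from base -16 to -10 and read on the other strand, in capitals. The 95% interval of Ccng2 does not reach a change of 1.5-fold in either direction.
Ccng2: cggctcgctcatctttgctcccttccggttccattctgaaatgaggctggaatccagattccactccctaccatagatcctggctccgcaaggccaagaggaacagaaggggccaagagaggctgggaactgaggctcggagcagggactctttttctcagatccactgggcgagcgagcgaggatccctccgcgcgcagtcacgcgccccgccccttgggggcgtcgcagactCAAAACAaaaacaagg

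Klf15, a Krüppel-like factor induced by fasting and glucocorticoids that drives amino acid catabolism, read 10.08, 10.39, 10.11 and 10.30 in RKO-labelled livers, against 10.14, 10.20, 10.25 and 10.04 in WT livers. RKO-labelled arrays 2 and 4 lay above all WT arrays, and the other 2 within the WT range. The difference was 0.06 (SE 0.10, 95% interval from -0.15 to 0.28; limma adjusted p = 0.870). Klf15 and Txnip vary with the time of day in liver, and the clock genes of a list described with them mostly had lower means in RKO-labelled livers: of 14 measured of 15, 12 were lower, 6 with an unadjusted p under 0.05, 1 of the 2 higher ones also had one, 0 passed by limma, and the median difference was -0.25. Over all genes 6.61% were lower and 3.84% higher at that p, and 11352 of 19938 had a lower mean. Without both arrays numbered 1, 4 clock genes were called, all lower (Ciart, Dbp, Hlf and Per2). Of all genes, 5.08% were called as lower in that fit and 2.39% as higher. Dbp, a clock output factor, differed by -0.52 (SE 0.12; limma adjusted p = 0.149), and Ciart, a repressor of the clock, by -1.14 (SE 0.27; limma adjusted p = 0.149). Ciart was called when arrays were weighted (-1.35; limma adjusted p = 0.015), without WT array 1 (-1.34; 0.0413), without RKO-labelled array 1 (-1.33; 0.0149) and without both (-1.53; 0.00106), and Dbp in these fits except the one without WT array 1 (limma adjusted p from 0.024 to 0.027). Neither Ciart nor Dbp was called in any other alternative (limma adjusted p up to 0.507 and 0.536). RKO-labelled array 1, which had the lowest array weight (0.4665), lay toward the WT arrays for Ciart (0.77 above the others of its group) and Dbp (0.2). WT array 1 lay toward the RKO-labelled arrays for Ciart (-0.8). The clock calls in fits that dropped or weighted these arrays are therefore a description. Cry1 (0.20, SE 0.08) and Arntl (0.06, SE 0.14) had higher means, and Arntl changed sign without both arrays numbered 1 (-0.11). The part of the clock genes in the values of Klf15 and Txnip was not tested.

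Bcl6, a transcriptional repressor that in liver represses fatty acid oxidation genes, in immune cells directs germinal centre B cells, and is a FoxO target in blood cells, had no common level in either group. It read 9.90, 9.12, 7.44 and 8.19 in RKO-labelled livers, against 10.09, 7.91, 9.40 and 7.62 in WT livers. The WT livers held a pair of high and a pair of low values, while the RKO-labelled values were spread more evenly. The SD was 1.07 in RKO-labelled and 1.18 in WT livers. Over the 8 arrays its SD of 1.05 had rank 15 among the 19938 genes and that of Txnip (0.41) rank 322. The group difference of -0.09 was small beside its error (SE 0.56, 95% interval from -1.31 to 1.13; limma adjusted p = 0.971), and the interval runs from 0.404 to 2.18 times the WT level, so these arrays do not bound a change of Bcl6 closely. With 1 array left out at a time it ran from -0.50 without RKO-labelled array 1 to 0.35 without WT array 1. Kupffer cell markers, of which 7 of 7 were measured, averaged 9.76, 9.43, 9.35 and 10.3 in RKO-labelled livers and 9.89, 9.78, 9.43 and 9.12 in WT livers. The 2 arrays lowest in these markers, WT array 4 and RKO-labelled array 3, were also the 2 lowest for Bcl6, and WT array 1, second highest in them, was the highest for Bcl6; the array highest in them, RKO-labelled array 4, was among the 4 lowest for Bcl6. Their part in the Bcl6 values was not tested. Lymphocyte markers (6 of 7 measured) averaged between 6.24 and 6.49 in RKO-labelled livers and between 6.30 and 6.73 in WT livers. The nearest 3 genes by root mean square difference of log2 values centred over the 8 arrays were Lgals1 (0.75), Phlda2 (0.751) and Chil3 (0.758). This measure counts the size of the swings as well as their order, and the SDs of these genes (0.43, 0.31 and 0.27) were well below that of Bcl6, so a gene that moves in the same order by smaller steps also stands far from it. Chil3 read 4.46, 4.32, 3.70 and 3.95 in RKO-labelled livers and 4.21, 3.81, 4.30 and 3.94 in WT livers, and its 4 highest arrays were the 4 highest for Bcl6. It is a dim gene, with group means of 4.11 and 4.07, below the filter level of 6 and at percentile 3.9 of all genes. Because it was picked for likeness to Bcl6, the shared order is no separate finding.

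**Figure D2:**
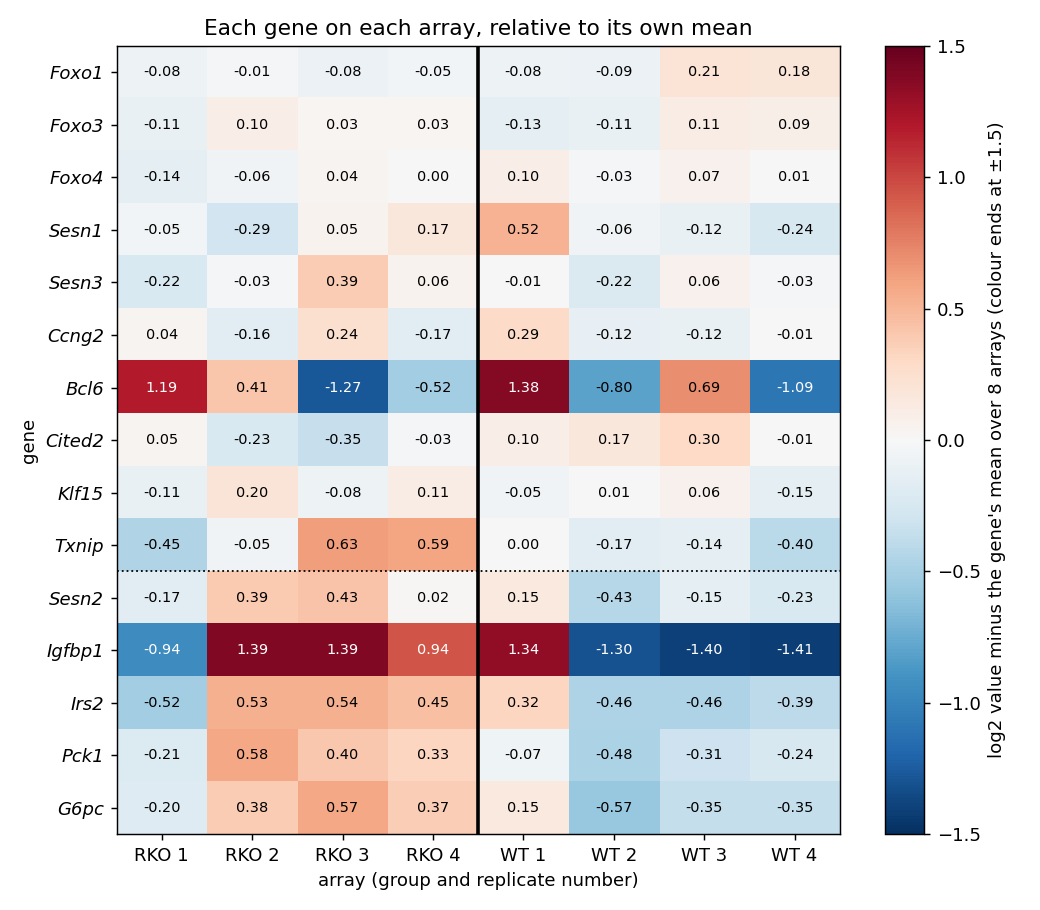
Log2 value of each gene on each array minus that gene's mean over the 8 arrays, RKO-labelled arrays left of the line and WT arrays right of it; the 10 genes stand above the dotted line, with Sesn2, Igfbp1, Irs2, Pck1 and G6pc below it. Igfbp1 is low on RKO-labelled array 1 (-0.94) and high on WT array 1 (1.34), against the rest of each group. Bcl6 is high on both of these arrays (1.19 and 1.38), and the FoxO factors lie at most 0.21 from their means.

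The arrays numbered 1 did not behave alike over the 10 genes. WT array 1 was the highest of the 8 for 4 of them, Foxo4, Sesn1, Ccng2 and Bcl6, and RKO-labelled array 1 was the lowest of the 8 for 3 of them, Foxo4, Sesn3 and Txnip. In the other direction, WT array 1 was the lowest of the 8 for Foxo3, and RKO-labelled array 1 was the second highest for Bcl6. How often these arrays were highest or lowest over all genes was not counted. RKO-labelled array 1 also had the lowest array median (6.90, against 6.97 to 7.03 on the others). After quantile normalisation again the Foxo4 difference was -0.041, against -0.074 before. Among the classic insulin-repressed transcripts, Igfbp1, a secreted binding protein for insulin-like growth factors, read 7.76, 10.10, 10.10 and 9.65 in RKO-labelled livers, against 10.04, 7.40, 7.30 and 7.29 in WT livers. Relative to the other arrays of its group, RKO-labelled array 1 lay at -2.18 for Igfbp1, and the corresponding distances were -0.84 for Txnip, -0.36 for Sesn3 and -0.45 for Sesn2, but 1.65 for Bcl6 and 0.25 for Cited2. For WT array 1 they were 2.71 for Igfbp1, 0.66 for Sesn1, 0.37 for Ccng2, 1.78 for Bcl6 and 0.23 for Txnip. Sesn1 and Ccng2 stood high with Igfbp1 on WT array 1 and were not low with it on RKO-labelled array 1 (-0.03 and 0.07).

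**Figure D3:**
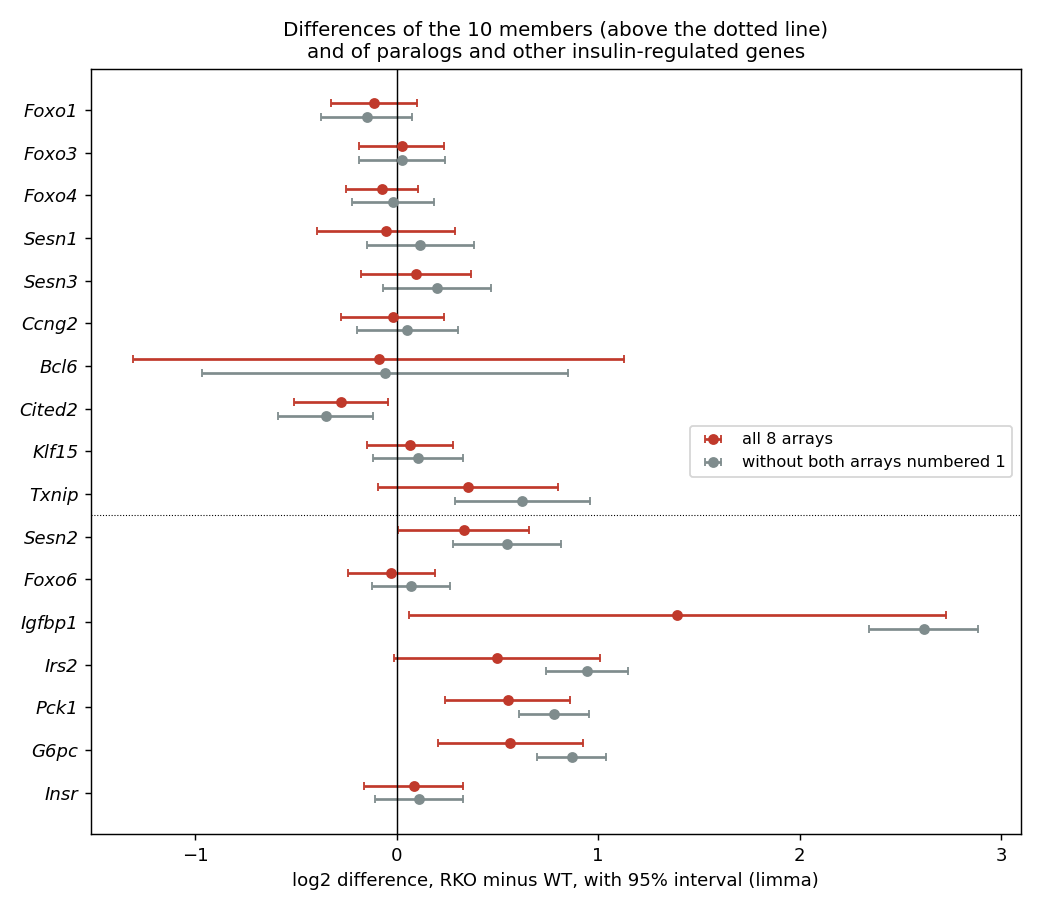
Log2 differences, RKO-labelled minus WT, with 95% intervals from limma, with all 8 arrays (red) and without both arrays numbered 1 (grey). Without these arrays Igfbp1, Irs2, Pck1 and G6pc lay between 0.78 and 2.62. Of the 10 genes above the dotted line, 9 lay between -0.35 and 0.20 and Txnip stood at 0.62. Sesn2, below that line, stood at 0.55. Both arrays left out lay toward the other group for Igfbp1, Irs2, Pck1, G6pc, Sesn2 and Txnip, so the grey values of these genes are a description.

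Other genes of the pathway are given by their counts. Of 35 measured of 36 other FoxO targets, 23 had a higher and 12 a lower mean in RKO-labelled livers, 5 of the higher ones and 1 of the lower ones at an unadjusted p under 0.05 (3.84% and 6.61% of all genes), and the median difference was 0.08; 0 passed by limma. Pck1, phosphoenolpyruvate carboxykinase, and Bcl2l11, the pro-apoptotic protein Bim, had the smallest p among the higher ones. Bcl2l11 read 8.03, 8.24, 8.50 and 8.22 in RKO-labelled livers, against 7.90, 7.78, 7.99 and 7.85 in WT livers. All RKO-labelled values lay above all WT values (4.42% of all genes separated in either direction), at a difference of 0.37 (SE 0.11; limma adjusted p = 0.236; exact permutation p = 0.0286, the smallest that 4 arrays against 4 can give). Atg12, an autophagy conjugation protein, was the 1 lower gene with an unadjusted p under 0.05 (-0.33, SE 0.14; limma adjusted p = 0.413), and Cdkn1b, the cell cycle inhibitor p27, differed by -0.18 (SE 0.09), with a second probe set at 0.29. Without both arrays numbered 1, 8 of the 35 were called as higher (Angptl4, Bcl2l11, Eif4ebp1, G6pc, Gadd45b, Igfbp1, Irs2 and Pck1) and Atg12 as lower; Angptl4, Eif4ebp1 and Gadd45b are named for this call, after their values were seen. In that fit 2.39% of all genes were called as higher and 5.08% as lower. The 2 arrays were left out with earlier results of these data known. Both lay toward the other group for Bcl2l11, G6pc, Igfbp1, Irs2, Pck1 and Atg12, so these calls and their count are a description. Insr, the insulin receptor and a FoxO target, differed by 0.08 (SE 0.11; limma adjusted p = 0.845).

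A list of FoxO regulators held kinases, phosphatases, acetyltransferases, deacetylases, methyltransferases, ubiquitin ligases, 14-3-3 proteins and others, and 32 of 34 were measured. Of these, 11 had a higher and 21 a lower mean, 4 and 7 of them at an unadjusted limma p under 0.05 (3.84% and 6.61% of all genes). By limma 0 passed, and the median difference was -0.06. Without both arrays numbered 1, 4 of the 32 were called as higher (Setd7, Sirt3, Trib3 and Xpo1) and 4 as lower (Hdac3, Nlk, Sgk1 and Skp2), against 2.39% and 5.08% of all genes. Those outside the naming rule are named for this call. Both arrays left out lay toward the other group for Sirt3, Hdac3 and Skp2, so these calls and their counts are a description. Prmt1, the arginine methyltransferase that modifies Foxo1 next to its Akt site, read 7.56, 7.57, 7.72 and 7.58 in RKO-labelled livers, against 7.37, 7.23, 7.51 and 7.11 in WT livers. The groups did not overlap, and the difference was 0.30 (SE 0.10; limma adjusted p = 0.287). Skp2, a ubiquitin ligase subunit that targets Foxo1 for degradation, read 7.84, 7.58, 7.73 and 7.83 in RKO-labelled livers, against 7.88, 7.99, 8.20 and 8.12 in WT livers. These groups were also separate, narrowly so between array 1 of each, with a difference of -0.30 (SE 0.10; limma adjusted p = 0.291). Prmt1 and Skp2 were the 2 of 32 regulators with separate groups, against 4.42% of all genes. Sirt3, a mitochondrial deacetylase, differed by 0.34 (SE 0.12; limma adjusted p = 0.329) and Hdac3, a histone deacetylase that in mouse liver deacetylates Foxo1 when glucagon acts, by -0.30 (SE 0.10; limma adjusted p = 0.297).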

How the data were processed

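Liver RNA of 8 mice was measured on 1 array each. For 35556 probe sets the authors deposited 1 value per array, made, per the submitters' processing notes, with RMA, Affymetrix Expression Console and Partek (no version or order stated). The deposited values were taken as log2, judging by their range and by RMA, because no source used here states the base. RMA equalises arrays and compresses dim differences. Array medians lay between 6.90 and 7.03.

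The 21789 probe sets with exactly 1 gene symbol (19938 genes) were fitted with limma 3.58.1 in R 4.3.3 (lmFit, eBayes with a trend, RKO minus WT, two-sided), with Benjamini-Hochberg adjustment over all of them and 0.05 as the threshold. A gene is read by its brightest probe set. Errors of differences are moderated standard errors. Exact permutation tests are two-sided over the 8 arrays. The fit was also run on simulated data with known changes. These had the same noise on every array and no deviating array, so that run does not cover the arrays numbered 1. P-values measure the spread between these mice, whose number limits the precision.

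Members, lists and alternatives were chosen with earlier results of these data known. The text names the 10 genes, their paralogs, 5 insulin-regulated genes, Rictor, from each of 3 lists (FoxO regulators, other FoxO targets, clock) the 2 higher and the 2 lower genes of smallest p, and the 3 genes nearest in profile to the member with the largest SD. Deviations of same-numbered arrays correlated at -0.0994, -0.128, -0.0356 and 0.0552, so the numbers were not used as pairs. Alternatives were array weights, other variance priors, rescaling, probe filters, a replicate block and left-out arrays. Promoter sequences are from RefSeq (GRCm38.p6). No build is stated for the probe sets.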

Additional observations from a re-analysis of the deposited data

Results flagged for a closer look

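In 9 of 70 groups of 4 arrays checked by Dixon's test at the 95% level, 1 array stood far from the other 3. Chance gives about 1 in 20 for independent groups of genes picked without their values. These groups share the same 8 arrays, and some of their genes were picked by their values, so the count is a description. None of the 20 groups of the 10 genes was among the 9 (0 of 20), Bcl6 included. An array numbered 1 was the distant one in 7 of the 9. On RKO-labelled array 1 these were Irs2 (8.24), Sirt3 (9.96), Atg12 (9.11), Phlda2 (8.03) and Igf1 (12.94), and on WT array 1 Igfbp1 (10.04) and Irs2 (9.08). On RKO-labelled array 3 they were Prmt1 (7.72) and Cish (10.65).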

How the results depend on the processing

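Of the 10 genes, 0 passed with all arrays at equal weights and 1, Txnip, without both arrays numbered 1; over all genes the counts were 0 and 1489. Leaving out single arrays gave from 0 to 0 of the 10 genes and from 0 to 877 of all genes, with 877 without RKO-labelled array 1 and 59 without WT array 1, and array weights gave 707. Quantile normalisation again, median centring, the filter on dim probe sets, other variance priors, all probe sets and the replicate block gave 0; no call changed with the replicate block. Rescaling moved the median of all probe sets by at most 0.0181. Foxo1, Foxo4, Cited2, Klf15 and Txnip kept their sign in all alternatives. Of these, Klf15 fell to 0.009 without RKO-labelled array 2 and Foxo4 to -0.018 without both arrays numbered 1. The others changed sign in some alternatives. Sesn1 was 0.034 with array weights and 0.118 without both arrays numbered 1, and Ccng2 0.034 and 0.053. With single arrays left out Foxo3 ran from -0.016 to 0.067, Sesn1 from -0.14 to 0.11, Sesn3 from -0.018 to 0.18, Ccng2 from -0.11 to 0.071 and Bcl6 from -0.50 to 0.35. Among other genes Foxo6 was 0.019 with array weights, 0.001 after quantile normalisation and 0.072 without both arrays numbered 1, Arntl was -0.106 and Chil3 -0.03 without both, Chil3 -0.008 with array weights, and Cdkn1b 0.291 by its next brightest probe set. With single arrays left out Foxo6 ran from -0.092 to 0.073, Rictor from -0.03 to 0.15, Arntl from -0.048 to 0.16, Phlda2 from -0.25 to 0.05 and Chil3 from -0.079 to 0.18. Of the genes outside the 10, Sesn2, Igfbp1, Irs2, Pck1, G6pc, Sirt3, Skp2, Hdac3, Bcl2l11, Atg12, Ciart and Dbp passed without both arrays numbered 1. That fit was chosen with earlier results of these data known, so its calls are a description. Pck1, G6pc, Prmt1, Hdac3, Bcl2l11, Atg12, Ciart and Dbp passed with array weights. The causes were not tested. RMA values hold no signal over background, so no limit of detection is given.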

Other observations

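Cish, Socs2 and Igf1, transcripts induced by growth hormone through STAT5, were looked at after the spread of Bcl6 had been seen, since growth hormone represses Bcl6 in mouse liver. Cish read 9.60, 9.48, 10.65 and 9.65 in RKO-labelled livers and 8.72, 9.68, 9.14 and 10.16 in WT livers. The array with the highest Bcl6 value, WT array 1 (10.09), had the lowest Cish value (8.72). The array with the lowest Bcl6 value, RKO-labelled array 3 (7.44), had the highest Cish value (10.65), and WT array 4 was next lowest in Bcl6 (7.62) and next highest in Cish (10.16). RKO-labelled array 1, second highest in Bcl6 (9.90), was not among the lowest in Cish (9.60, rank 5 of the 8 from the highest). Socs2 read 11.44, 11.07, 11.31 and 11.29 in RKO-labelled livers and 11.22, 11.05, 11.31 and 10.84 in WT livers. It did not mirror Bcl6 in this way: it was highest on RKO-labelled array 1, second highest in Bcl6 (9.90), and lowest on WT array 4, second lowest in Bcl6. Igf1 ranged from 12.79 to 12.99 over the 8 arrays and was second highest on RKO-labelled array 1 (12.94). Between the groups Cish differed by 0.42 (SE 0.30; limma adjusted p = 0.657), Socs2 by 0.17 (SE 0.12; limma adjusted p = 0.631) and Igf1 by -0.07 (SE 0.07; limma adjusted p = 0.778). The relation of Cish to Bcl6 was picked from these arrays, and no test of it was made.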
